A study of Homo sapiens with 60 samples.

Results

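The genes described here make the machinery that copies DNA and the building blocks it uses. They are 45 genes picked by symbol for their known roles, among 60675 genes of an expected-count table from SW1783 cells, and the Ensembl identifier of each was found in the table. SW1783 is a human astrocytoma cell line. Cells were treated for 24 h, and RNA was sequenced in 60 libraries of 22 groups. The vehicle group received DMSO, at 0.1% by the sample labels but 2% by the text of the series. A second set of 3 groups received 10 µM of wortmannin or LY294002, which inhibit PI3-kinase, or of thioridazine, a phenothiazine antipsychotic. The other 18 groups received a hot-water extract of Glycyrrhizae Radix (called licorice here), Paeoniae Radix (peony), Poria Cocos, Panax Ginseng, Atractylodis Rhizoma or Angelicae Gigantis Radix at 500, 100 or 20 µg/mL, called high, medium and low. There were 3 libraries in 16 groups and 2 in the 6 groups of angelica and peony, whose replicate 3 was not analysed here. All groups are the same cell line with no genetic change named in the labels, and the labels do not say if replicates came from separate cultures, so p-values reflect only how much these libraries vary.

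DNA replication is prepared before S phase, when the origin recognition complex, CDC6 and CDT1 load the MCM helicase onto DNA. CDC45 and the GINS complex then switch the helicase on, and polymerase alpha with primase, polymerases delta and epsilon, the sliding clamp PCNA and its loader RFC copy the strands. Ribonucleotide reductase, thymidylate synthase and thymidine kinase supply deoxynucleotides. Cyclin E and the E2F transcription factors set the entry into S phase, and many of the genes above are textbook E2F targets, silent in resting cells and raised as cells approach S phase. The members were read in 5 roles: 16 licensing and helicase genes, 15 polymerase, clamp and lagging-strand genes, 5 nucleotide supply genes, 6 genes of chromatin assembly and methylation copying, and 3 genes of the G1/S switch.

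Promoters are shown because the members moved together and many of them are textbook E2F targets. RefSeq promoters (GRCh38.p14, 250 bases before to 50 bases after each start) were found for 40 of the 45 members, and not for MCM4, MCM5, GINS4, CCNE2 and POLD3. The letters TTTCCCGC, TTTGGCGC, TTTCGCGC or TTTGCCGC, searched on both strands with overlapping matches counted, occurred in 21 of the 40 (52.5%) and in 3.99% of all 27305 genes of the same table. The 250 bases before the start are printed below with the matched letters in capitals for 3 genes. RRM2 is the gene that moved most, and its stretch, from 1 of its 2 entries in the table, holds none of these letters and has 3 copies of CCAAT in capitals. CCAAT on either strand occurred in 22 of the 40 members (55%) and in 39.7% of all genes. The letters TTTGAA or TTCGAA, of the CHR element of cell cycle genes, occurred in 4 of the 40 (10%) and in 19.5% of all genes. A match is only a match of letters and is no measured binding site.
MCM6 (chr2:135876444-135876693, minus strand): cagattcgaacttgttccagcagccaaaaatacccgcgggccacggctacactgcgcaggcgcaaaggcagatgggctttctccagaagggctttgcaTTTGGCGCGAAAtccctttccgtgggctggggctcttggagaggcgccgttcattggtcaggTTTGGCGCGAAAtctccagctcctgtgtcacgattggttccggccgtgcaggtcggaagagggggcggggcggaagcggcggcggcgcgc
E2F1 (chr20:33686386-33686635, minus strand): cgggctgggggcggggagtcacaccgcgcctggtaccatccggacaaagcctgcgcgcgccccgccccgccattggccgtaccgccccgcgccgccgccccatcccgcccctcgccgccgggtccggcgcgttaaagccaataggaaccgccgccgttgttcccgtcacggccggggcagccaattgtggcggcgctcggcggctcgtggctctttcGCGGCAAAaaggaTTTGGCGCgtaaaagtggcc
MCM3 (chr6:52284743-52284992, minus strand): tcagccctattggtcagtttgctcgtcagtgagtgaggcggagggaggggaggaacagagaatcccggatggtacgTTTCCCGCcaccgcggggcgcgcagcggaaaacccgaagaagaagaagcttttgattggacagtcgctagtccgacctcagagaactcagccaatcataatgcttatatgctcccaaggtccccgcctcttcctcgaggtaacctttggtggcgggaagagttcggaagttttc
RRM2 (chr2:10122489-10122738, plus strand): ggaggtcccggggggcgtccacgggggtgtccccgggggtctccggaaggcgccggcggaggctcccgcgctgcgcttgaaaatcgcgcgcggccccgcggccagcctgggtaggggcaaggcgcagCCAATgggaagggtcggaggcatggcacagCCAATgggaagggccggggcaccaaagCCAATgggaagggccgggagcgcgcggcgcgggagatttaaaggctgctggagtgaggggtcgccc

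Library totals ranged from 19.45 to 30.87 M counts (median 26.05 M), and all 45 members passed the filter on low counts, within 17919 genes tested. Levels are CPM (counts scaled to library size, with TMM factors) and changes are log2 fold changes ± SE. A member is called higher or lower at an edgeR quasi-likelihood p that stays under 0.05 after Benjamini-Hochberg adjustment over all 17919 genes. All sample titles name BatchA. The sample codes begin with A1 for the vehicle, 1 for the drugs and 2, 3 or 4 for the pairs of extracts, called sets here. The labels do not say what a set stands for or whether A1 and 1 are separate. Against vehicle an effect of the set and one of the treatment therefore cannot be told apart. Doses of 1 extract share a set. Libraries that stood farthest from their group over all genes were peony high (root mean square deviation 0.291 log2), atractylodes high replicate 1 (0.289) and licorice medium replicate 3 (0.288). Vehicle libraries were at 0.220 to 0.229. In a group of 2 both libraries lie equally far from their mean. The value for peony high therefore singles out neither library and is not strictly comparable with groups of 3. Among 10 astroglial markers VIM, CD44, SOX9, SLC1A3 and NES were present, while GFAP, S100B, AQP4 and ALDH1L1, which define mature astrocytes, had medians under 0.1 CPM. Of the members, 16 overlap exons of a gene on the opposite strand (MCM2, MCM7, GINS2, GINS3, GINS4, RFC4, RFC5, PRIM1, FEN1, LIG1, RRM1, TYMS, DUT, CHAF1A, ASF1B and CCNE2), which makes their levels less certain. The same holds for RRM2, DNMT1, CHAF1B, POLA2, POLD1, POLD3, PRIM1 and FEN1, which overlap exons of another gene on the same strand.

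All 3 drugs lowered most of the replication and nucleotide genes. With wortmannin 38 of the 45 members fell and 0 rose, where 16.4% of all genes were called lower and 15.4% higher (31.7% in either direction). With LY294002 36 fell and 0 rose (19.9% and 19.4% of all genes, 39.3% in all). With thioridazine 43 fell and 0 rose (23.8% and 24.6%, 48.4% in all). The median change of the members was -0.30 with wortmannin, -0.33 with LY294002 and -0.79 with thioridazine, beside medians over all genes of 0.02 in each. The largest positive changes were 0.07, 0.17 and 0.08, none of them called. At an unadjusted p under 0.05 the members numbered 38, 37 and 43, and DESeq2 called 38, 37 and 43. In bulk RNA, fewer cells in S phase and less of these RNAs per cell cannot be told apart.

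**Figure D1:**
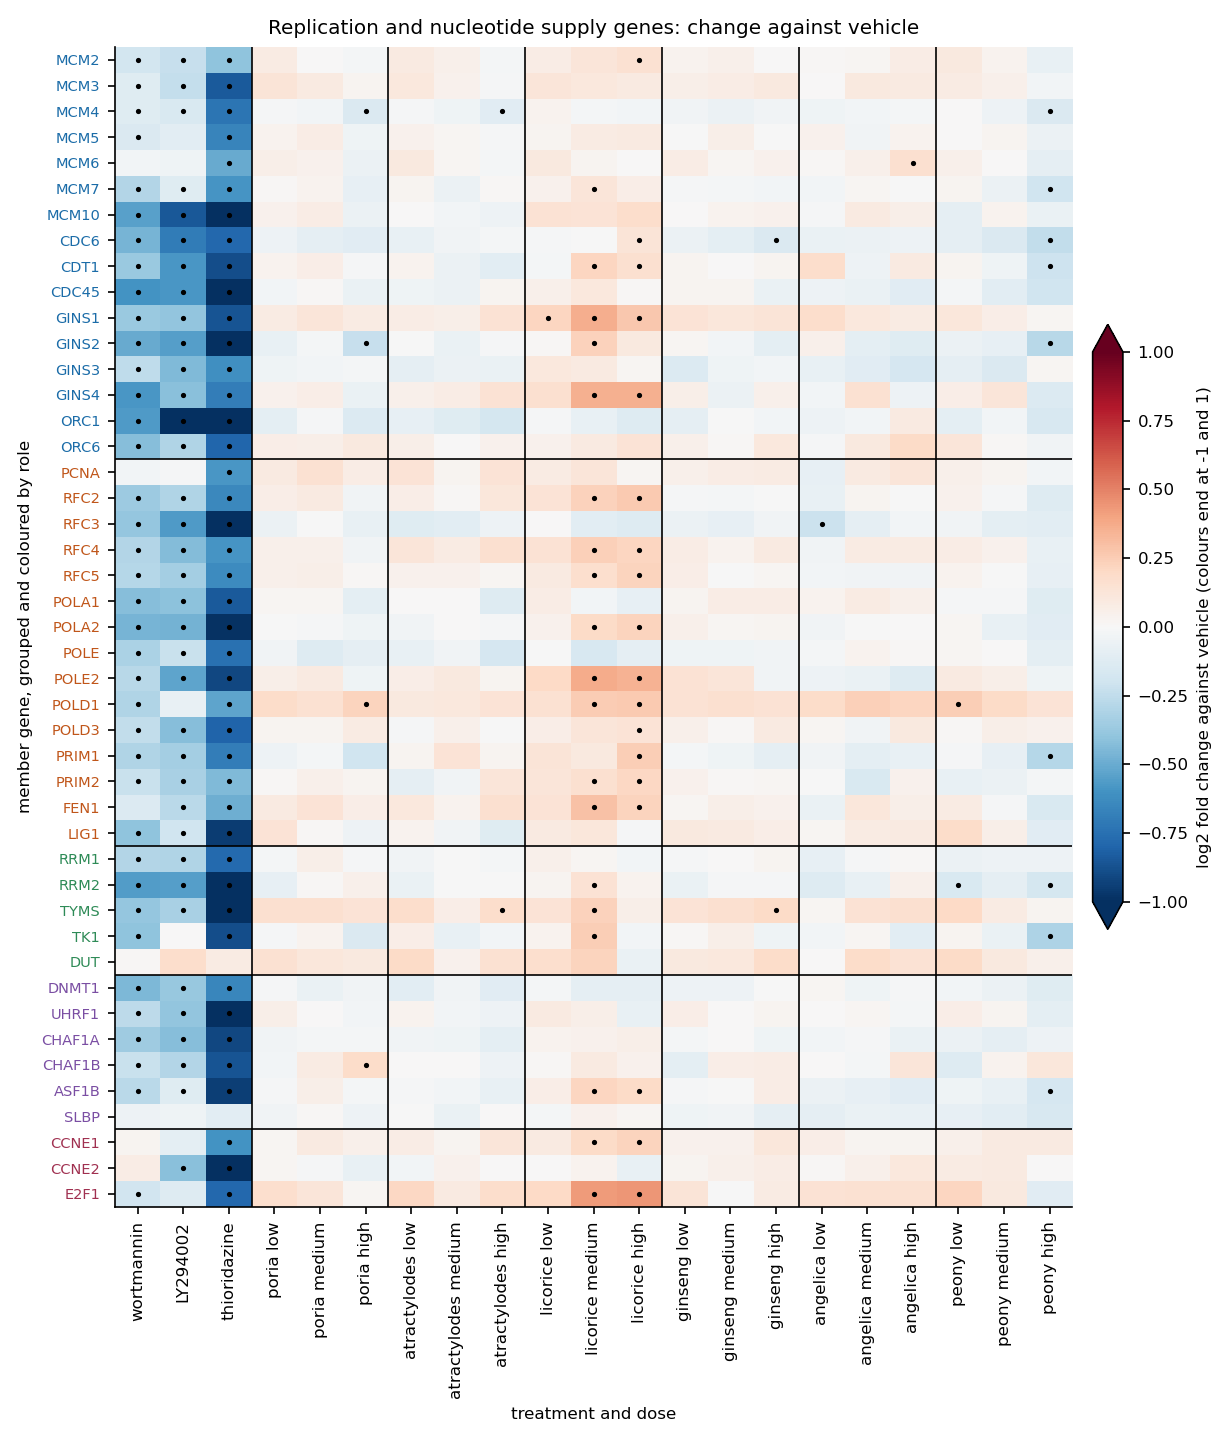
Log2 fold change against vehicle (colour, ending at -1 and 1) of the 45 members (rows, grouped by role) in 21 comparisons (columns), with a dot where the adjusted p was under 0.05. The 3 drug columns are blue for nearly every gene, with medians of -0.30, -0.33 and -0.79. The extract columns are paler, with changes from -0.31 in peony high to 0.44 in licorice high.

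The gene that moved most was RRM2 (ENSG00000171848, chr2:10120698-10131419), the small subunit of ribonucleotide reductase, whose promoter is the last of those printed. Its level was 229, 227.5 and 224 CPM in the vehicle libraries, 154, 159 and 148 CPM with wortmannin, 156, 157 and 150 CPM with LY294002, and 59.0, 55.8 and 50.9 CPM with thioridazine. Thioridazine lay lowest and vehicle highest without overlap, and the wortmannin and LY294002 libraries overlapped each other between them. RRM2 changed by -0.56 ± 0.04 with wortmannin, -0.55 ± 0.04 with LY294002 and -2.04 ± 0.04 with thioridazine, the last a fall of 75.7% (edgeR adjusted p = 1.78e-40). RRM1, the large subunit of the same enzyme, changed by -0.29 ± 0.04, -0.30 ± 0.04 and -0.78 ± 0.04. Pseudogene copies named after RRM2 (3), TYMS (2), PCNA (3), DUT (8), RFC3 (1), RFC5 (1) and FEN1 (1) are annotated in GENCODE 29. How reads were divided with them makes these levels less certain.

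The other nucleotide supply genes differed from each other. TYMS, which makes thymidylate from deoxyuridylate, was at 85.0, 93.4 and 86.7 CPM in vehicle and at 41.9, 41.6 and 35.8 CPM with thioridazine, a change of -1.15 ± 0.06. Wortmannin and LY294002 changed it by -0.38 ± 0.06 and -0.32 ± 0.06. TK1, the thymidine salvage kinase of dividing cells, was at 64.6 to 66.2 CPM in vehicle, 47.4 to 50.7 CPM with wortmannin, 60.9 to 68.2 CPM with LY294002 and 33.7 to 37.7 CPM with thioridazine. The LY294002 libraries overlapped the vehicle libraries for TK1 (change 0.01 ± 0.06, 95% interval -0.11 to 0.13), and the wortmannin and thioridazine libraries lay wholly below them. DUT, which clears dUTP so that it is not built into DNA, was not called with any drug: its level was 26.9 to 28.1 CPM in vehicle, 27.4 to 28.7 CPM with wortmannin, 29.2 to 33.1 CPM with LY294002 and 27.8 to 30.3 CPM with thioridazine. TYMS also overlaps exons of ENOSF1 and TYMSOS on the opposite strand, and whether the counting used strand is unknown here, so part of its signal could not be assigned.

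**Figure D2:**
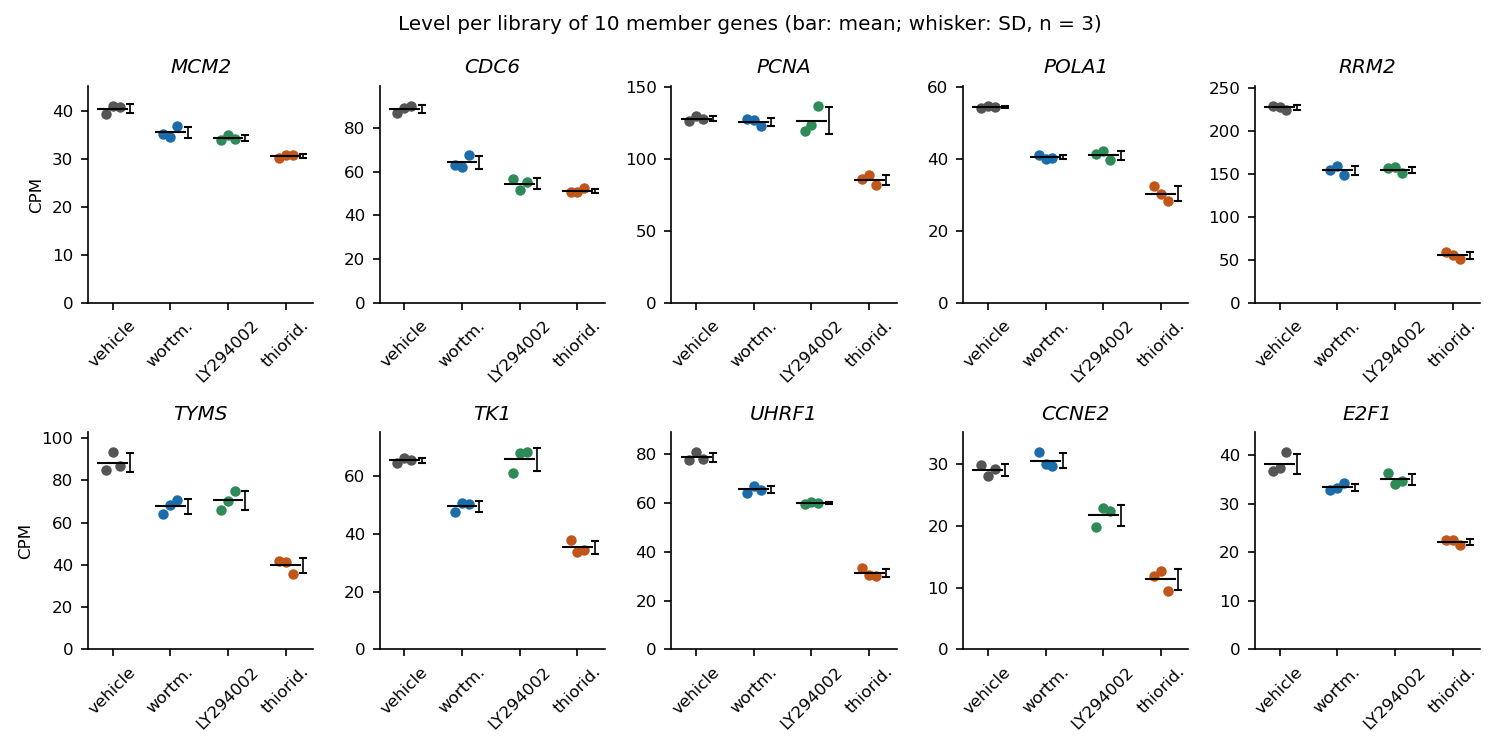
Level in CPM (vertical axes start at 0) of 10 members chosen for their roles, 1 point per library, in vehicle and with wortmannin, LY294002 and thioridazine; bars are means and whiskers SDs of 3 libraries. Every thioridazine point lies below every vehicle point in all 10 panels, while PCNA with wortmannin and LY294002, TK1 with LY294002 and CCNE2 with wortmannin overlap vehicle. Over all genes tested, 29.1% had every thioridazine library below every vehicle library and 30.3% had every one above.

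Licensing and helicase genes fell with every drug, with the largest falls in ORC1, MCM10, CDC45, GINS4 or CDC6. Of 16 genes, 15 fell with wortmannin, 14 with LY294002 and 16 with thioridazine, with medians of -0.37, -0.41 and -0.79. ORC1 (chr1:52372829-52404459), the largest subunit of the origin recognition complex, was at 16.5, 17.7 and 16.1 CPM in vehicle, 11.7, 11.45 and 10.9 CPM with wortmannin, 8.28, 7.99 and 8.47 CPM with LY294002, and 5.87, 5.31 and 4.22 CPM with thioridazine. No 2 of these groups overlapped, and the changes were -0.56 ± 0.07, -1.02 ± 0.07 and -1.71 ± 0.08. MCM10 (chr10:13161554-13211104), which helps to activate the helicase, went from 26.4 to 26.8 CPM in vehicle to 16.9 to 19.5, 14.0 to 15.3 and 6.89 to 9.21 CPM in the same order of drugs. Its changes were -0.54 ± 0.07, -0.85 ± 0.08 and -1.69 ± 0.08.

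CDC45 and the GINS genes, which complete the active helicase, also fell. CDC45 was at 26.2 to 27.6 CPM in vehicle and at 10.3 to 12.3 CPM with thioridazine, a fall of 58.1%, and it had the largest fall of the role with wortmannin (-0.60 ± 0.07). GINS4 fell by 0.58 ± 0.06 on the log2 scale with wortmannin, GINS2 fell by 58.1% with thioridazine, and all 4 GINS genes were called lower with each drug. The licensing factor CDC6 was at 86.6, 88.9 and 90.1 CPM in vehicle, 63.3, 62.1 and 67.6 CPM with wortmannin, 56.4, 51.8 and 55.3 CPM with LY294002 and 50.7, 50.8 and 52.4 CPM with thioridazine. For CDC6 the LY294002 and thioridazine libraries overlapped, and thioridazine against LY294002 was not called (-0.09 ± 0.05, adjusted p = 0.127 in edgeR). CDT1, the partner of CDC6, changed by -0.37 ± 0.06, -0.58 ± 0.06 and -0.88 ± 0.06.

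The ring genes MCM2 to MCM7 had smaller changes with the PI3-kinase inhibitors. They ranged from -0.03 to -0.30 with wortmannin, from -0.04 to -0.24 with LY294002 and from -0.40 to -0.84 with thioridazine. MCM2 was at 39.4 to 41.2 CPM in vehicle, 34.7 to 36.9 CPM with wortmannin, 33.9 to 35.1 CPM with LY294002 and 30.2 to 30.9 CPM with thioridazine, the smallest called change of the role with thioridazine (-0.40 ± 0.05). The smallest called changes of the role with the inhibitors were -0.12 ± 0.04 for MCM4 with wortmannin and -0.12 ± 0.05 for MCM7 with LY294002, and both calls were lost with no filter on low counts. MCM6, whose promoter holds 4 overlapping matches to the E2F letters, was at 46.7 to 47.6 CPM in vehicle, 45.6 to 47.2 CPM with wortmannin and 44.0 to 46.7 CPM with LY294002. These ranges overlapped and neither change was called (-0.03 ± 0.05, interval -0.12 to 0.07, and -0.04 ± 0.05, interval -0.14 to 0.05). With thioridazine MCM6 was at 30.5 to 35.9 CPM, below every vehicle library.

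The polymerase, clamp and lagging-strand genes mostly fell too. PCNA was not called with either PI3-kinase inhibitor, FEN1 not with wortmannin and POLD1 not with LY294002. Of 15 genes, 13 fell with wortmannin, 13 with LY294002 and 15 with thioridazine, with medians of -0.30, -0.34 and -0.69. POLA1, the catalytic subunit of the polymerase that starts each strand, was at 54.0, 54.7 and 54.5 CPM in vehicle, 41.2, 39.9 and 40.4 CPM with wortmannin, 41.3, 42.1 and 39.7 CPM with LY294002, and 32.6, 30.2 and 28.3 CPM with thioridazine. The inhibitors' libraries overlapped each other and lay between vehicle and thioridazine. Its second subunit POLA2 changed by -0.46 ± 0.06 with wortmannin and -0.99 ± 0.06 with thioridazine, and RFC3, of the clamp loader, by -0.56 ± 0.06 with LY294002 and -0.995 ± 0.058 with thioridazine. POLE2, an accessory subunit of the leading-strand polymerase, changed by -0.53 ± 0.08 with LY294002. PRIM2, the large primase subunit, had the smallest called change of the role with wortmannin (-0.22 ± 0.06) and thioridazine (-0.44 ± 0.06), and LIG1, which joins Okazaki fragments, with LY294002 (-0.20 ± 0.06).

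PCNA (chr20:5114953-5126626), the sliding clamp, was at 126, 129.5 and 128 CPM in vehicle, 128, 127 and 123 CPM with wortmannin, 119, 123 and 137 CPM with LY294002, and 85.7, 88.9 and 82.0 CPM with thioridazine. The wortmannin libraries overlapped the lower part of the vehicle range, and LY294002 held the highest and the lowest of those 9 libraries. The changes were -0.02 ± 0.06 (interval -0.14 to 0.09) with wortmannin, -0.01 ± 0.06 (interval -0.13 to 0.10) with LY294002 and -0.58 ± 0.06 with thioridazine.

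**Figure D3:**
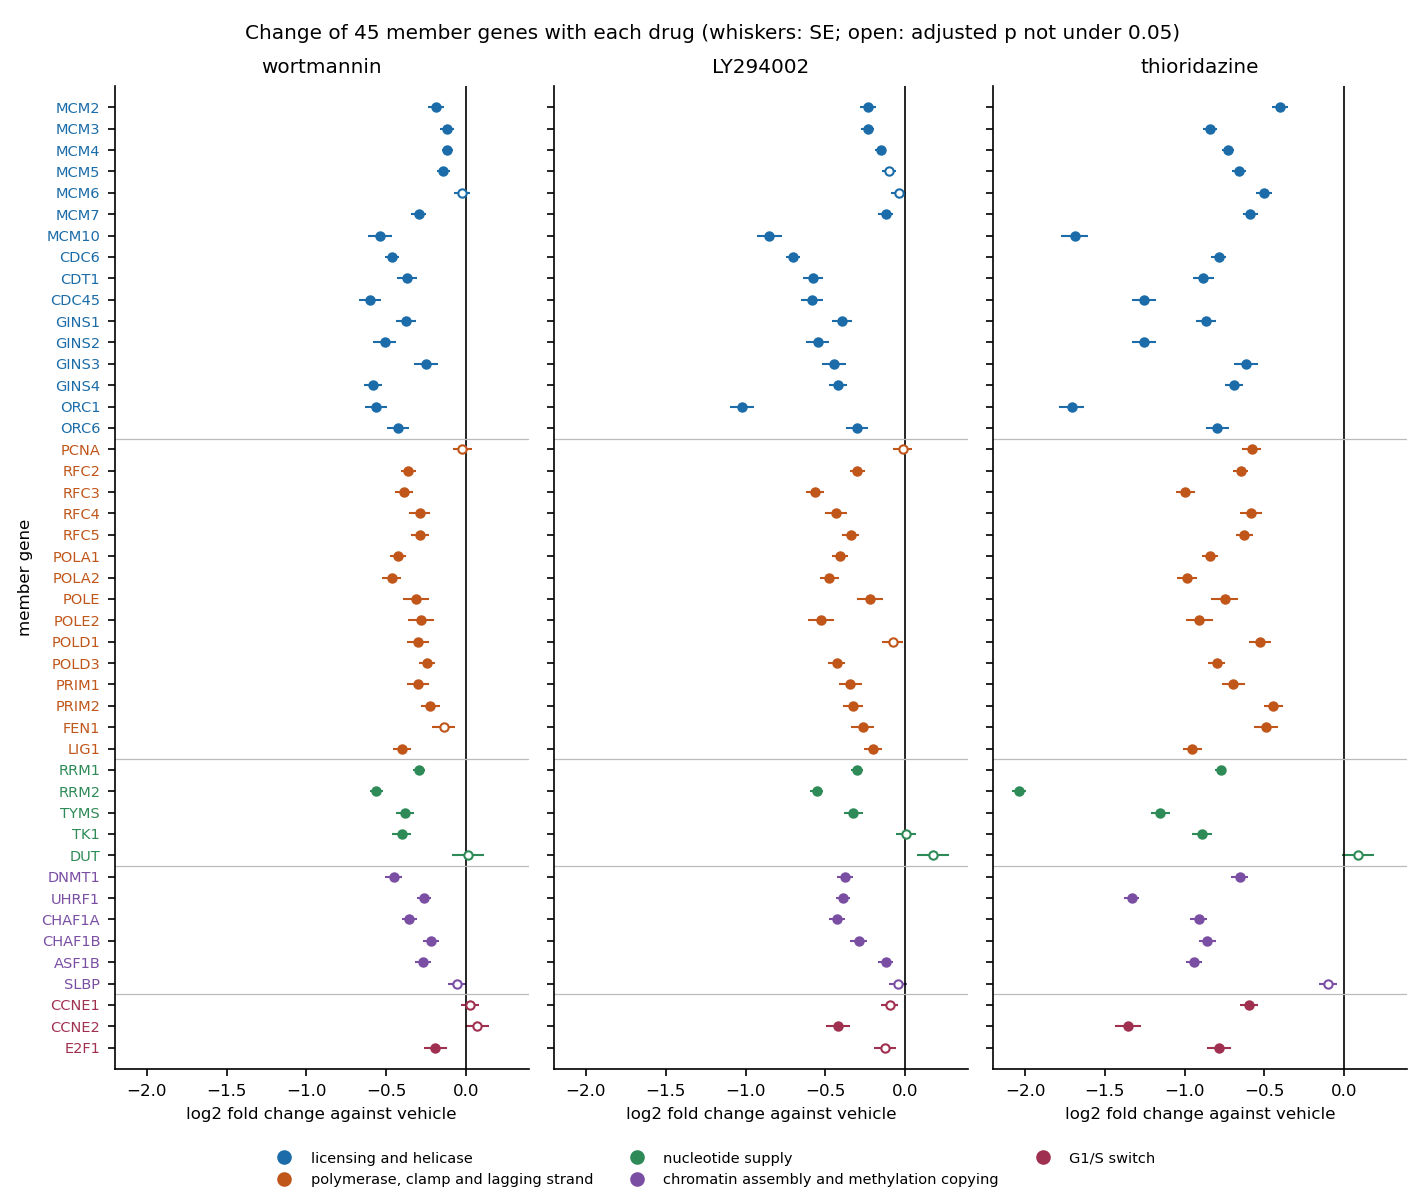
Log2 fold change against vehicle (horizontal axis, whiskers SE) of each member (vertical axis, coloured by role) with wortmannin, LY294002 and thioridazine; open points had an adjusted p of 0.05 or more. In the thioridazine panel only DUT and SLBP are open and RRM2 lies farthest left at -2.04, while MCM6, PCNA, DUT, SLBP and CCNE1 are open in both inhibitor panels.

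Genes that rebuild chromatin behind the fork fell with each drug except SLBP. Of 6 genes, 5 fell with each drug. UHRF1, which guides methylation to newly copied DNA, was at 77.5, 80.8 and 78.1 CPM in vehicle, 64.3, 66.9 and 65.5 CPM with wortmannin, 59.8, 60.6 and 59.9 CPM with LY294002, and 33.3, 30.5 and 30.1 CPM with thioridazine. The 4 groups did not overlap, and the changes were -0.27 ± 0.04, -0.39 ± 0.04 and -1.33 ± 0.05. Its partner DNMT1, the maintenance methyltransferase, changed by -0.45 ± 0.05, -0.38 ± 0.05 and -0.65 ± 0.05. The histone chaperone genes changed by -0.35 ± 0.05 (CHAF1A) and -0.22 ± 0.05 (CHAF1B) with wortmannin, by -0.43 ± 0.05 (CHAF1A) and -0.12 ± 0.05 (ASF1B) with LY294002, and by -0.94 ± 0.05 (ASF1B) with thioridazine. The call of ASF1B with LY294002 was lost with no filter on low counts and in the fit of the compared groups alone. SLBP, which binds the stem-loop of replication-dependent histone mRNAs, was at 64.8 to 67.7 CPM in vehicle and 60.4 to 64.3 CPM with thioridazine, a change of -0.10 ± 0.06 that was not called (interval -0.21 to 0.01).

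Of the 3 G1/S switch genes, E2F1 was called lower with wortmannin, CCNE2 with LY294002, and all 3 with thioridazine. CCNE2, a cyclin E gene, was at 29.8, 28.0 and 29.2 CPM in vehicle, 31.9, 30.0 and 29.6 CPM with wortmannin, 19.8, 22.9 and 22.4 CPM with LY294002, and 11.9, 12.7 and 9.44 CPM with thioridazine. Wortmannin overlapped vehicle, and the other drugs lay below it without overlap (changes 0.07 ± 0.07, -0.42 ± 0.08 and -1.36 ± 0.08). E2F1 (chr20:33675683-33686404) was at 36.6, 37.3 and 40.6 CPM in vehicle, 32.7, 33.2 and 34.1 CPM with wortmannin, 36.2, 34.0 and 34.6 CPM with LY294002, and 22.4, 22.5 and 21.5 CPM with thioridazine. Its changes were -0.19 ± 0.07, -0.13 ± 0.07 and -0.78 ± 0.07, and the call with wortmannin was lost without vehicle replicate 2 or 3 or any of the wortmannin libraries (-0.14 to -0.20). CCNE1 changed by -0.59 ± 0.06 with thioridazine.

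Members with and without the E2F letters in the promoter are described by their medians, with no test. With thioridazine the median change was -0.84 for the 21 genes with a match and -0.78 for the 19 without, with LY294002 -0.38 and -0.30, and with wortmannin -0.31 and -0.30. With peony high the medians were -0.10 and -0.09, and with licorice high they were 0.06 with a match and 0.17 without. Of the genes with the largest fall of each role with thioridazine, ORC1 and RRM2 have no match and RFC3 and UHRF1 have one. The last of them, CCNE2, had no promoter entry.

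The drugs were also compared with each other at the same dose, time and code set, in 3 pairs, which bears on whether the PI3-kinase inhibitors moved these genes alike. Thioridazine was lower than wortmannin for 42 members and higher for 0 (19.8% and 18.9% of all genes), and lower than LY294002 for 39 and higher for 0 (20.4% and 19.5%). The largest differences from wortmannin were -1.48 ± 0.04 for RRM2, -1.43 ± 0.08 for CCNE2 and -1.15 ± 0.09 for MCM10. From LY294002 they were -1.49 ± 0.04 for RRM2, -0.94 ± 0.05 for UHRF1 and -0.94 ± 0.08 for CCNE2.

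Wortmannin against LY294002 gave 9 members higher and 5 lower (8.79% and 7.57% of all genes). CCNE2 was 0.49 ± 0.08, ORC1 0.46 ± 0.08 and MCM10 0.31 ± 0.08 higher with wortmannin, with all wortmannin libraries above all LY294002 libraries. TK1 was -0.41 ± 0.06, POLD1 -0.22 ± 0.07 and LIG1 -0.20 ± 0.06, with all wortmannin libraries below. The 14 calls became 8 without LY294002 replicate 3, 9 without wortmannin replicate 2 and 7 with no filter on low counts. The other members were not called in this pair, which does not show that the inhibitors act alike on them.

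Genes outside the 45 were read from lists of the same pathways. Of 29 other replication genes, 21, 21 and 25 fell and 1, 3 and 1 rose with wortmannin, LY294002 and thioridazine. CLSPN, a checkpoint adaptor at the fork, changed by -0.62 ± 0.06, -0.65 ± 0.06 and -1.81 ± 0.07. TIPIN, of the fork protection complex, changed by -0.46 ± 0.08 with wortmannin and -0.68 ± 0.09 with LY294002, and ATAD2, a chromatin ATPase, by -1.41 ± 0.06 with thioridazine. GMNN, the inhibitor of CDT1, changed by -0.13 ± 0.06 (not called), -0.32 ± 0.07 and -0.53 ± 0.07.

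Of 21 other nucleotide genes, 14, 14 and 16 fell and 2, 2 and 5 rose. PAICS, of purine synthesis, was at 3152 ± 22 CPM in vehicle (SD, n = 3) and 1509 ± 21 CPM with thioridazine (change -1.06 ± 0.03), with changes of -0.58 ± 0.03 and -0.65 ± 0.03 with wortmannin and LY294002. RRM2B and TK2 rose. RRM2B, the p53-induced reductase subunit, changed by 0.28 ± 0.06, 0.35 ± 0.06 and 0.46 ± 0.06, and TK2, the mitochondrial thymidine kinase, by 0.32 ± 0.06 with wortmannin, 0.46 ± 0.06 with LY294002 and 0.94 ± 0.05 with thioridazine.

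Among 24 tested genes of G1/S control (CCND2 failed the filter), 9, 12 and 16 fell and 5, 7 and 6 rose. CDKN1A, a CDK inhibitor, was at 23.6 ± 1.8 CPM in vehicle, 36.8 ± 2.4 CPM with wortmannin, 41.1 ± 2.0 CPM with LY294002 and 88.0 ± 2.7 CPM with thioridazine (SD, n = 3 each). Its changes were 0.64 ± 0.08, 0.80 ± 0.08 and 1.90 ± 0.08. CDKN1B, another CDK inhibitor, changed by 0.24 ± 0.06, 0.58 ± 0.06 and 0.25 ± 0.06, and CDKN1C, of the same family, by 1.04 ± 0.26, 0.96 ± 0.27 and 2.02 ± 0.24 from a level of 0.526 ± 0.057 CPM. The inhibitor calls for CDKN1C were lost against the low-dose extract groups (0.34 and 0.26). CCND1, cyclin D1, changed by 0.16 ± 0.04, -0.35 ± 0.04 and -0.18 ± 0.04, and the last was -0.00 against the low-dose groups. MYC changed by 0.02 ± 0.06 (not called), 0.19 ± 0.06 and -0.20 ± 0.06, and E2F2 by -1.96 ± 0.16 with thioridazine.

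Of 25 mitosis genes, 23, 20 and 25 fell and 0 rose with any drug (medians -0.35, -0.30 and -0.71). CDC20, which activates the complex that starts anaphase, changed by -0.71 ± 0.05 with wortmannin and -0.66 ± 0.05 with LY294002, the mitotic kinases PLK1 by -0.48 ± 0.06 with wortmannin and AURKA by -0.64 ± 0.05 with LY294002. With thioridazine AURKB changed by -1.10 ± 0.06 and MKI67, the proliferation antigen, by -1.22 ± 0.14.

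Markers of other cell types also differed between these groups. The summed level of 9 epithelial, blood and endothelial markers was 418.5 to 428.1 CPM in vehicle, 436.1 to 449.8 CPM with wortmannin, 449.4 to 495 CPM with LY294002 and 309.4 to 319.6 CPM with thioridazine, mostly KRT18 and CD68, with EPCAM, CDH1, CD3E and VWF (4 of 9) at medians under 0.1 CPM. That of 8 markers of other neural cells was 61.9 to 64.3, 82.2 to 89.1, 66.2 to 70.7 and 94.1 to 100.4 CPM, with MOG, AIF1 and P2RY12 (3 of 8) under 0.1 CPM. Within the first sum, KRT18 and CD68 moved in opposite directions with thioridazine. The mean of KRT18 was 224.1 CPM in vehicle and 65.12 CPM with thioridazine, and that of CD68 was 169.1 and 230.9 CPM. The summed level of the 10 astroglial markers was 8642 to 9035, 8355 to 8539, 8046 to 8566 and 6359 to 6544 CPM in the same order of groups. It was mostly VIM (mean 6017 CPM in vehicle and 4249 CPM with thioridazine) and CD44 (2746 and 2063 CPM). NES also fell (6.234 and 4.432 CPM), while SOX9 (81.37 and 111.3 CPM) and SLC1A3 (21.87 and 33.09 CPM) were higher with thioridazine. In the other neural sum SYT1 (36.89 and 68.91 CPM) and MBP (5.236 and 9.95 CPM) were higher and SNAP25 (20.4 and 17.9 CPM) lower. The part of any of these markers in the changes of the replication genes was not tested.

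The extracts moved fewer members, most with licorice. At the high dose against vehicle, 18 members rose and 0 fell with licorice (15.9% and 15% of all genes, 30.9% in all), 9 fell and 0 rose with peony (10.4% and 10.3%, 20.7% in all), 2 rose and 2 fell with poria (5.17% and 6.41%, 11.6% in all), 1 rose and 1 fell with atractylodes (7.24% and 6.63%, 13.9% in all), 1 rose and 1 fell with ginseng (3.05% and 4.2%, 7.25% in all), and 1 rose with angelica (2.94%, with 3.53% lower and 6.46% in all). DESeq2 called 17 members with licorice high, 9 with peony high and 0 with angelica high. At the medium and low doses 23 calls were made in 12 comparisons, 19 of them with licorice medium.

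**Figure D4:**
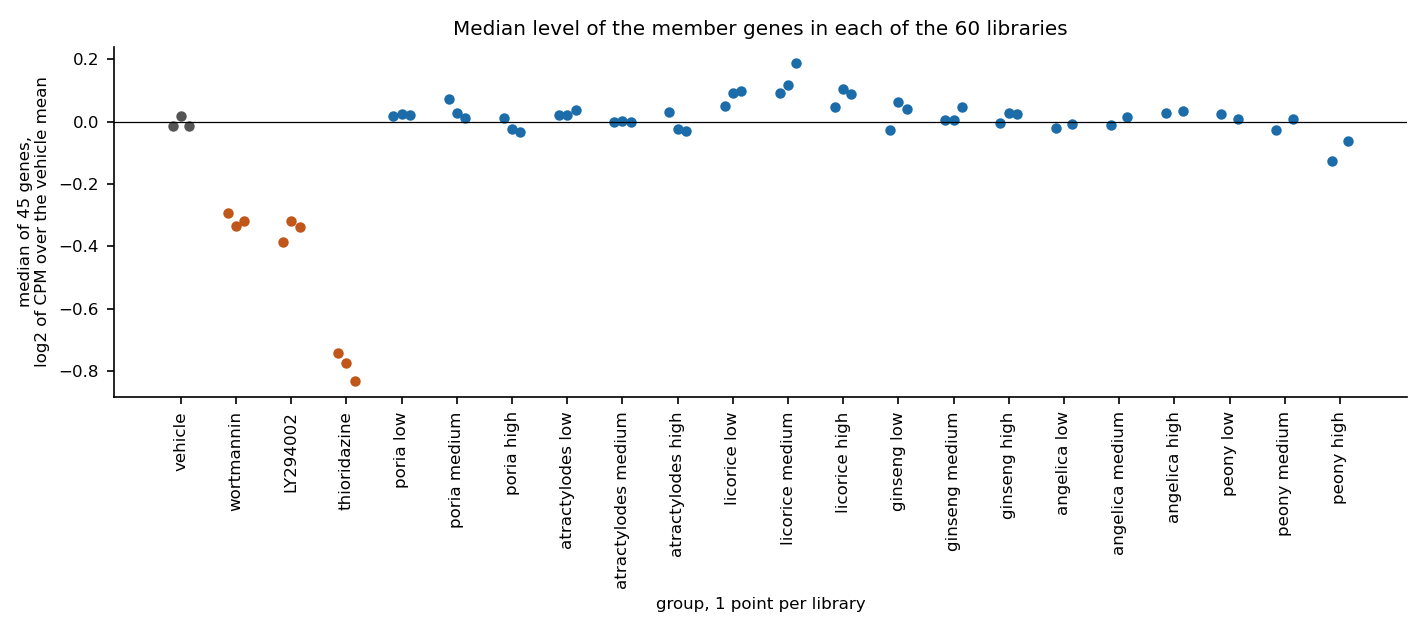
Median over the 45 members of log2 CPM relative to the vehicle mean of each gene (vertical axis), 1 point per library, in all 22 groups (horizontal axis). Thioridazine libraries lie at -0.74 to -0.83, wortmannin and LY294002 libraries at -0.29 to -0.39, all licorice libraries above 0 with the highest at 0.19 in licorice medium, and both peony high libraries at -0.13 and -0.06.

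With licorice at the high dose, E2F1, most polymerase, clamp and lagging-strand genes and a minority of licensing and helicase genes rose. At the high dose 10 of 15 polymerase, clamp and lagging-strand genes, 5 of 16 licensing genes, 2 of 3 G1/S genes, 1 of 6 chromatin genes and 0 of 5 nucleotide genes rose. The median change of the members was 0.09, beside 0.01 over all genes. E2F1 was at 36.6 to 40.6 CPM in vehicle, 42.1 to 44.7 CPM at the low dose, 47.4 to 56.2 CPM at the medium and 48.8 to 54.9 CPM at the high dose. The 3 doses all lay above vehicle, and medium and high overlapped each other (changes 0.20 ± 0.07, not called, 0.42 ± 0.07 and 0.44 ± 0.07). GINS4 was at 34.2 to 35.3 CPM in vehicle, 37.1 to 41.2, 43.3 to 45.6 and 42.4 to 45.9 CPM at the rising doses, with a change of 0.35 ± 0.05 at the high dose. The other largest rises at the high dose were 0.35 ± 0.08 for POLE2 and 0.27 ± 0.06 for GINS1. The chosen anchors MCM2 and CDC6 rose by 0.16 ± 0.05 and 0.13 ± 0.04, and both calls were lost without vehicle replicate 1 and with no filter on low counts. The summed levels of the epithelial, blood and endothelial markers (340.8 to 375.2 CPM) and of the other neural markers (53.4 to 56.5 CPM) were below vehicle in licorice high. Their part in these changes was not tested. The first sum was also below vehicle in high-dose groups of other extracts. It was 336.6 to 350.9 CPM in poria, 326.1 to 331.6 CPM in atractylodes, 355.9 to 375.7 CPM in ginseng and 356.1 to 371.4 CPM in angelica. In licorice low it was 373.7 to 382.5 CPM. PCNA, POLA1, RRM2, TYMS, TK1, UHRF1 and CCNE2 were not called at the high dose of licorice (-0.08 to 0.06).

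Licorice medium gave 19 members higher and 0 lower (12.4% and 12.8% of all genes). Its marker sums also lay below vehicle, at 368.7 to 388 CPM for the epithelial, blood and endothelial markers and 50.94 to 56.96 CPM for the other neural markers, and their part was not tested. Its largest rises were E2F1, POLE2 (0.37 ± 0.08) and GINS1 (0.36 ± 0.06). At this dose 3 of the 5 nucleotide genes rose: RRM2 by 0.14 ± 0.04, TYMS by 0.23 ± 0.06 and TK1 by 0.25 ± 0.06. TK1 was at 74.7, 69.3 and 88.2 CPM in the medium libraries and at 63.5, 67.4 and 62.1 CPM in the high ones, the latter across the vehicle range. Without licorice medium replicate 3, which held the highest TK1 level and stood apart over all genes, 12 members were called. Licorice low gave 1 call, GINS1 (0.21 ± 0.06), where 1.53% of all genes were called higher and 1.76% lower.

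Mitosis genes moved against the members with licorice. At the high dose 24 of 25 fell and 0 rose, with a median of -0.44, and at the medium dose 11 fell and 2 rose. The median of the mitosis genes was also below 0 in every other extract comparison with vehicle, from -0.04 with poria high to -0.27 with peony high. Compared with licorice low, in the same set, licorice high had 25 of 25 mitosis genes lower (median -0.37). Of the members 6 were higher and 2 lower, beside 9.02% and 9.14% of all genes (18.2% in all). The share of members called in either direction was near that of all genes. The members included E2F1 (0.24 ± 0.07), GINS4 (0.19 ± 0.05) and CDT1 (0.18 ± 0.06) among the higher, and UHRF1 (-0.16 ± 0.04) and POLA1 (-0.16 ± 0.05), the lower. These 8 calls became 2 without licorice low replicate 2, 5 without licorice low replicate 1 or licorice high replicate 2 or 3, and 3 with no filter on low counts.

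**Figure D5:**
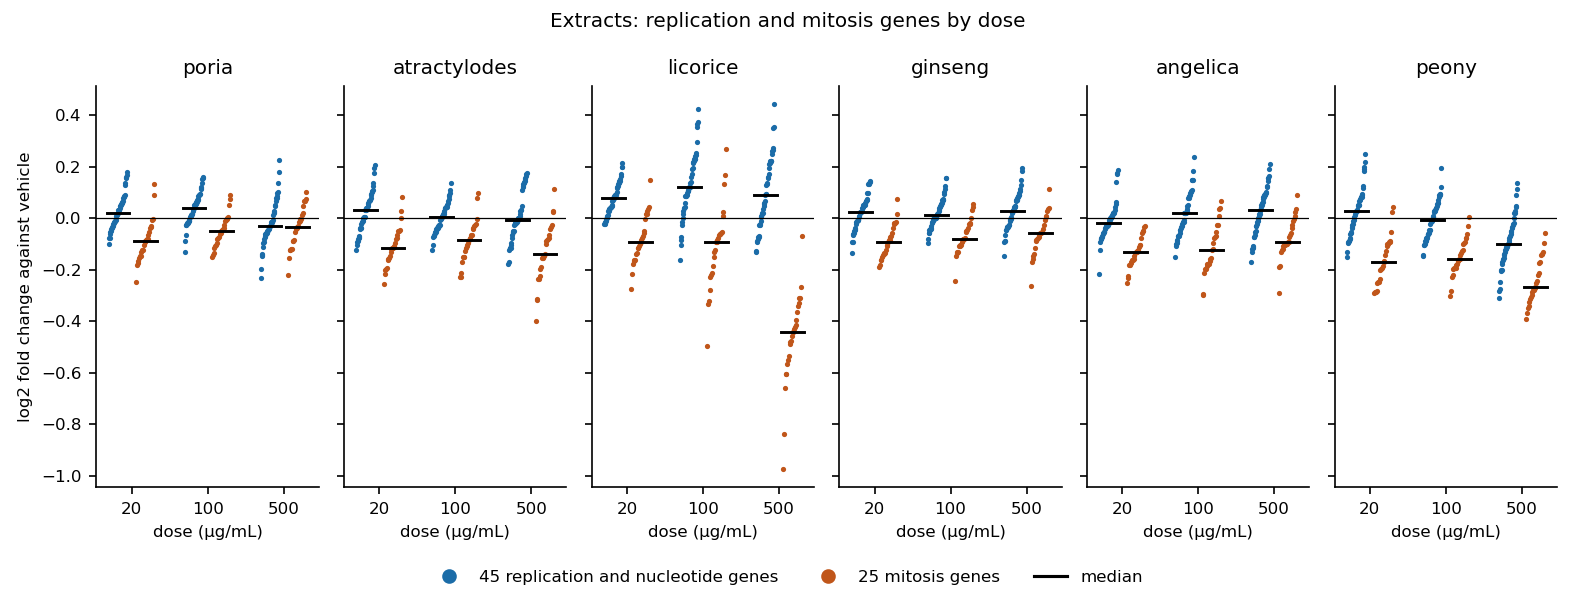
Log2 fold change against vehicle (vertical axis) of the 45 members (blue) and 25 mitosis genes (orange) at 20, 100 and 500 µg/mL of each extract, 1 point per gene, with medians as black bars. At 500 µg/mL of licorice the medians are 0.09 and -0.44, and in peony both are below 0 at -0.10 and -0.27.

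The same set holds ginseng, which allowed licorice high to be compared with another extract without the vehicle. Licorice high had 12 members higher and 2 lower than ginseng high (17.2% and 17% of all genes, 34.2% in all). The share of members called in either direction was near that of all genes. POLE2 (0.39 ± 0.08), E2F1 (0.36 ± 0.07) and PRIM1 (0.34 ± 0.07) had the largest rises, and DUT (-0.25 ± 0.10) and POLA1 (-0.15 ± 0.05) were lower. In DUT and POLA1 the libraries of both groups overlapped. Of the mitosis genes 24 were lower and 0 higher.

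With peony high the 9 members that fell were 5 licensing genes (CDC6, CDT1, GINS2, MCM4 and MCM7), TK1, RRM2, PRIM1 and ASF1B. TK1 was at 51.7 and 53.8 CPM against 64.6 to 66.2 CPM in vehicle and 65.1 and 68.4 CPM with peony low, below both without overlap (-0.31 ± 0.07 against vehicle, -0.34 ± 0.08 against the low dose). PRIM1, the catalytic primase subunit, changed by -0.28 ± 0.08, GINS2 by -0.27 ± 0.08 and CDC6 by -0.25 ± 0.05 against vehicle. RRM2 changed by -0.18 ± 0.05 and was at 190 and 210 CPM. The median change of the members was -0.10. Peony high replicate 1 had the lowest total of all 60 libraries (19.45 M counts), and replicate 2 had 28.27 M. What this depth did to the peony calls was not tested. The epithelial, blood and endothelial marker sum was 345.6 to 373.7 CPM, below vehicle, and its part was not tested. Without peony high replicate 1, which leaves 1 library assumed to vary like the other groups, 2 members were called in place of 9 and the median was -0.06.

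Peony high against peony low gave 8 members lower and 1 higher (3.13% and 2.78% of all genes), the largest being TK1, E2F1 (-0.33 ± 0.09) and LIG1 (-0.29 ± 0.07), with CHAF1B higher (0.25 ± 0.06). It gave 1 call without peony high replicate 1, 3 without either peony low library and 6 with DESeq2. Of the mitosis genes 1 fell in this comparison, and 20 of 25 fell against vehicle. Angelica high, of the same set, had 5 members higher than peony high and 0 lower (2.14% and 2.2% of all genes), led by CDT1 (0.29 ± 0.08), MCM6 (0.26 ± 0.06) and RRM2 (0.23 ± 0.05). That count was 0 without peony high replicate 1 and 2 without either angelica library.

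The remaining extracts gave few calls and small changes. With poria high POLD1 (0.22 ± 0.07) and CHAF1B (0.18 ± 0.05) were higher and GINS2 (-0.23 ± 0.07) and MCM4 (-0.14 ± 0.04) lower. Against poria low, CHAF1B (0.20 ± 0.05) and RRM2 (0.13 ± 0.04) were higher and LIG1 (-0.19 ± 0.06) and MCM4 (-0.13 ± 0.04) lower (2.73% and 2.78% of all genes). With atractylodes high TYMS was higher (0.17 ± 0.06) and MCM4 lower (-0.11 ± 0.04), and against its low dose only PRIM2 was called (0.21 ± 0.06; 2.24% of all genes higher and 1.86% lower). With ginseng high TYMS was higher (0.19 ± 0.06) and CDC6 lower (-0.15 ± 0.04), and with angelica high MCM6 was higher (0.16 ± 0.05, adjusted p = 0.0495 in edgeR). The counts for these 4 extracts changed by more than 1.5 times when single libraries were left out: 2 for poria without replicate 2 or 3 or vehicle replicate 3, 0 to 7 for atractylodes, 0 or 1 for ginseng with any library left out, and 0 for angelica with any library left out.

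Poria high against atractylodes high, of 1 set, had CHAF1B higher (0.23 ± 0.05) and 5 members lower (7.72% and 8.9% of all genes), the largest being PRIM1 (-0.23 ± 0.07), GINS2 (-0.23 ± 0.07) and GINS4 (-0.21 ± 0.06). It gave 2 calls without atractylodes high replicate 1 or poria high replicate 3, and 3 without poria high replicate 2. At lower doses RFC3 was lower with angelica low (-0.22 ± 0.06, 0.692% of all genes lower and 1.05% higher), and POLD1 was higher (0.25 ± 0.07) and RRM2 lower (-0.15 ± 0.04) with peony low (2.73% and 2.5%). The 8 lower-dose comparisons of poria, atractylodes and ginseng and the medium doses of angelica and peony gave 0 calls in edgeR and 0 in DESeq2, with 1 to 6 members at an unadjusted p under 0.05, where 0.117% to 1.56% of all genes were called in a direction. High against low gave 0 calls for ginseng (0.223% and 0.43% of all genes; 2 members at an unadjusted p under 0.05, 0 in DESeq2) and 0 for angelica (0.385% and 0.558%; 7 members, 1 in DESeq2).

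Across the 22 groups thioridazine had the lowest level of nearly all members. The lowest group mean was thioridazine for 43 members, licorice high for DUT and peony high for SLBP. Among extract groups the mean level ranged from 38.5 to 45.1 CPM for MCM2, 74.7 to 96.7 CPM for CDC6, 120.9 to 141.9 CPM for PCNA, 49.9 to 57.6 CPM for POLA1 and 200.3 to 250.4 CPM for RRM2. For TYMS it ranged from 89.6 to 103.7 CPM, for TK1 from 52.8 to 77.4 CPM, for UHRF1 from 73.5 to 83.8 CPM, for CCNE2 from 27.6 to 31.2 CPM and for E2F1 from 35.0 to 51.7 CPM. Over all groups the highest mean was 4.5 times the lowest for RRM2, 3.7 times for MCM10 and 3.5 times for ORC1, and 1.2 times for DUT and SLBP. Pearson's r of a gene's group means with the median of the other members was 0.86 to 0.99 over the 22 groups for 43 members, 0.13 for DUT and 0.36 for SLBP. The points share the scaling and the drug groups. Over the 19 groups without drugs r ranged from -0.13 for POLE to 0.92 for MCM7, with -0.08 for CHAF1B, -0.01 for CCNE2, 0.07 for DNMT1, 0.26 for DUT and 0.71 for SLBP.

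Per kilobase of annotated exon the members covered a wide range of levels in vehicle. PCNA was highest at 86.9 CPM per kb, followed by MCM7 at 45.2, RRM2 at 42.6, RRM1 at 38.3 and MCM3 at 36.4, and GINS3 was lowest at 2.83 CPM per kb. PCNA, the most abundant per length, ranged 1.7 times between its lowest and highest group.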

How the data were processed

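RNA of SW1783 cells was measured by RNA sequencing in 60 libraries. The deposited values are expected counts per gene that the authors made with RSEM 1.3.3, per the submitters' processing notes, which also name GRCh38, the aligner STAR 2.7.3a, the trimmer Trim Galore 0.6.5 and FastQC 0.11.9. No source used here states the strand setting. Of 279 columns 219 were not used. Groups came from the sample labels. Counts were rounded, filtered with filterByExpr (minimum count 10, minimum total 15), scaled by TMM and fitted in edgeR 4.0.16 (R 4.3.3) with 1 coefficient for each of 22 groups, so that groups share the estimate of spread. Quasi-likelihood p-values were adjusted by Benjamini-Hochberg over 17919 genes (threshold 0.05), and SE is the absolute log2 fold change divided by the square root of F. Alternatives were DESeq2 1.42.0, RLE scaling, no filter, a replicate block, the compared groups alone, each library left out (reusing the dispersion trend of all libraries) and, chosen after seeing the data, low-dose extract groups as baseline. The code was tested on simulated counts. The members and lists were chosen with earlier results of these data known. Named genes are the 2 largest and the smallest called change per role and drug, the largest 4 or 3 per direction and extract comparison, the 2 largest per other list and drug, and 10 members and 6 other genes chosen for their roles. Any others named were chosen after their values were seen. A result that this rule would name is not reported here.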

Additional observations from a re-analysis of the deposited data

How the results depend on the processing

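The counts of members called with each drug against vehicle stayed within 1.5 times under every alternative run, with 33 to 38 for wortmannin, 33 to 35 for LY294002 and 43 for thioridazine when single libraries were left out. Against the low-dose extract groups they were 39, 41 and 43, and licorice high gave 19. That baseline, chosen after seeing the data, gave 11 calls for poria high (4 against vehicle), 6 for atractylodes high (2), 0 for ginseng high (2) and 21 for peony high (9), and E2F1 with poria high went from 0.02 to -0.16.

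With no filter on low counts the calls were 7 for wortmannin against LY294002 (14 with the filter), 2 for poria high, 1 for ginseng high and 0 for angelica high (1). High against low then gave 0 for poria (4), 0 for atractylodes (1), 3 for licorice (8) and 5 for peony (9). With the compared groups fitted alone the calls were 8 for poria high, 0 for atractylodes high, 4 for ginseng high, 5 for angelica high, 0 for atractylodes high against low, 3 for peony high against low, 0 for poria against atractylodes (6) and 1 for angelica against peony (5). Angelica high gave 0 calls with DESeq2 and with RLE scaling, and angelica high against low gave 1 with DESeq2 (0 in edgeR). The cause was not tested.

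Leaving out each library gave 8 to 11 calls for wortmannin against LY294002, 38 to 40 for thioridazine against LY294002 and 41 to 42 against wortmannin. Against vehicle it gave 2 to 3 for poria, 0 to 7 for atractylodes, 13 to 19 for licorice, 0 to 1 for ginseng, 0 for angelica and 2 to 9 for peony at the high dose, and 16 to 24 over the lower doses (23). High against low gave 0 to 3 for poria (0 without poria high replicate 2), 0 to 2 for atractylodes, 2 to 6 for licorice, 0 for ginseng, 0 to 2 for angelica (2 without angelica low replicate 1) and 1 to 7 for peony. Within sets it gave 2 to 6 for poria against atractylodes, 10 to 15 for licorice against ginseng and 0 to 4 for angelica against peony.

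Same-numbered libraries did not deviate together over all genes (median r 0.00 over 582 pairs, 7 of them over 0.1). Of 1134 pairs with different numbers, 16 were over 0.1. This gave no sign of pairing, but it cannot show that same-numbered libraries have nothing in common, such as a culture. With the replicate block the calls were 38, 37 and 43 for the drugs, 18 for licorice high and 9 for peony high, and angelica high against low gave 1.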

Other observations

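The lists of related genes were also read with licorice and peony. With licorice high 10 of 29 other replication genes rose and 4 fell (median 0.11), 7 of 21 other nucleotide genes rose and 0 fell (median 0.07), and 4 of 24 tested G1/S control genes rose and 6 fell. Licorice medium gave 11 higher and 2 lower of the replication genes, 8 and 0 of the nucleotide genes, and 2 and 2 of the G1/S control genes. With peony high 0 replication genes rose and 3 fell, 1 nucleotide gene rose and 5 fell, and 2 G1/S control genes rose and 7 fell. Called in edgeR against vehicle were 15.9% of all genes higher and 15% lower in licorice high, 12.4% and 12.8% in licorice medium, and 10.3% and 10.4% in peony high.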
